A study of Mus musculus with 11 samples.

Results

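Blood and lymphatic vessels of the mouse small intestine were followed through 10 endothelial genes, taken by gene symbol from an RNA sequencing table of 24250 symbols in 11 libraries. Lyve1, Prox1 and Flt4 mark lymphatic endothelium, which in the villus forms the lacteal, and Pecam1, Cdh5, Kdr, Flt1, Plvap, Vwf and Nrp1 mark blood endothelium. All 10 symbols were found, and each was above 0 in all 11 libraries. The genes were given as a list, which was drawn up with earlier results of these data known. Because the RNA came from whole tissue, a lower level of an endothelial gene can mean fewer endothelial cells or less of that RNA per cell, and these cannot be told apart here.

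Under the epithelium of each villus lies a bed of fenestrated capillaries that takes up sugars, amino acids and other water-soluble nutrients, and in the core of the villus runs the lacteal, a blind-ended lymphatic vessel that takes up chylomicrons, the fat-carrying particles made by enterocytes. Blood vessels grow and stay permeable under VEGF-A, which signals through VEGFR2 (Kdr) and is held back by VEGFR1 (Flt1), a receptor that binds it tightly and signals weakly. Lacteals are maintained by VEGF-C through VEGFR3 (Flt4), and in mice loss of Nrp1 and Flt1 from endothelium raises VEGF-A signalling through VEGFR2, closes the junctions of the lacteal and limits chylomicron uptake.

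The first group was given a traditional Chinese herbal powder with Poria, known as Wu Ling San (FSP, from its English name, n = 4), the second is labelled HFD (read as high-fat diet, n = 4), and the third is labelled ND (read as normal diet, n = 3). What the FSP mice ate is not stated in the labels, although the series title speaks of obese mice. Age, sex, strain, dose, length of treatment and batch are not stated either, nor is the segment of small intestine. No label says that the libraries of a group are from different mice, so the p-values below measure the spread between these samples, part of which may be technical. Expression is given as FPKM, the fragments of a gene divided by its length and by the total of its library, so that levels of different genes can be compared.

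Estimated from the step size of low FPKM values, the libraries held 3.182e+07 to 3.84e+07 fragments. Markers that differ along the small intestine differed between groups. A list of 9 genes of the proximal small intestine summed to 2902 to 9407 FPKM in FSP, 12022 to 16068 FPKM in HFD and 529 to 4667 FPKM in ND, and a list of 10 distal genes summed to 1464 to 5115 FPKM in FSP, 828 to 1177 FPKM in HFD and 2665 to 13349 FPKM in ND. Mitochondrially encoded genes took 12.9% to 21.9% of summed FPKM in FSP, 18.1% to 40.4% in HFD and 16.3% to 22.2% in ND, with the highest share in HFD 1, and a high share leaves less of the library total for all other genes. Adipocyte markers (8 genes) summed to 80.0 to 172.6 FPKM in FSP, 90.2 to 122.5 FPKM in HFD and 45.1 to 65.9 FPKM in ND. For the endothelial genes below, the part of intestinal position, mitochondrial share and attached fat in the group values was not tested.

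Most blood endothelial genes were highest in 3 of the 4 FSP libraries (FSP 1, FSP 2 and FSP 4) and near the HFD and ND levels in the remaining one (FSP 3). With all libraries in the fit, no endothelial gene passed the threshold in any comparison. Kdr, the main VEGF-A receptor, was the 1 gene of 10 with every FSP library above every HFD library, against 4.33% of all genes in the table. Prox1, the transcription factor that sets lymphatic identity, was the 1 gene of 10 with every HFD library below every ND library, against 18.5% of all genes. Of the vascular signalling genes outside the list, Dll4 and Unc5b were lower in HFD than in ND, and both were higher in FSP than in HFD, where their adjusted p-values (0.0268 and 0.0300, limma) were close to the threshold. The epithelial markers Epcam and Cldn7 passed in the same directions in both comparisons. After median-ratio scaling of the libraries they passed in neither, and Dll4 and Unc5b passed only in HFD against ND. After quantile normalization Epcam and Cldn7 passed in both comparisons, and Dll4 and Unc5b again only in HFD against ND.

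**Figure D1:**
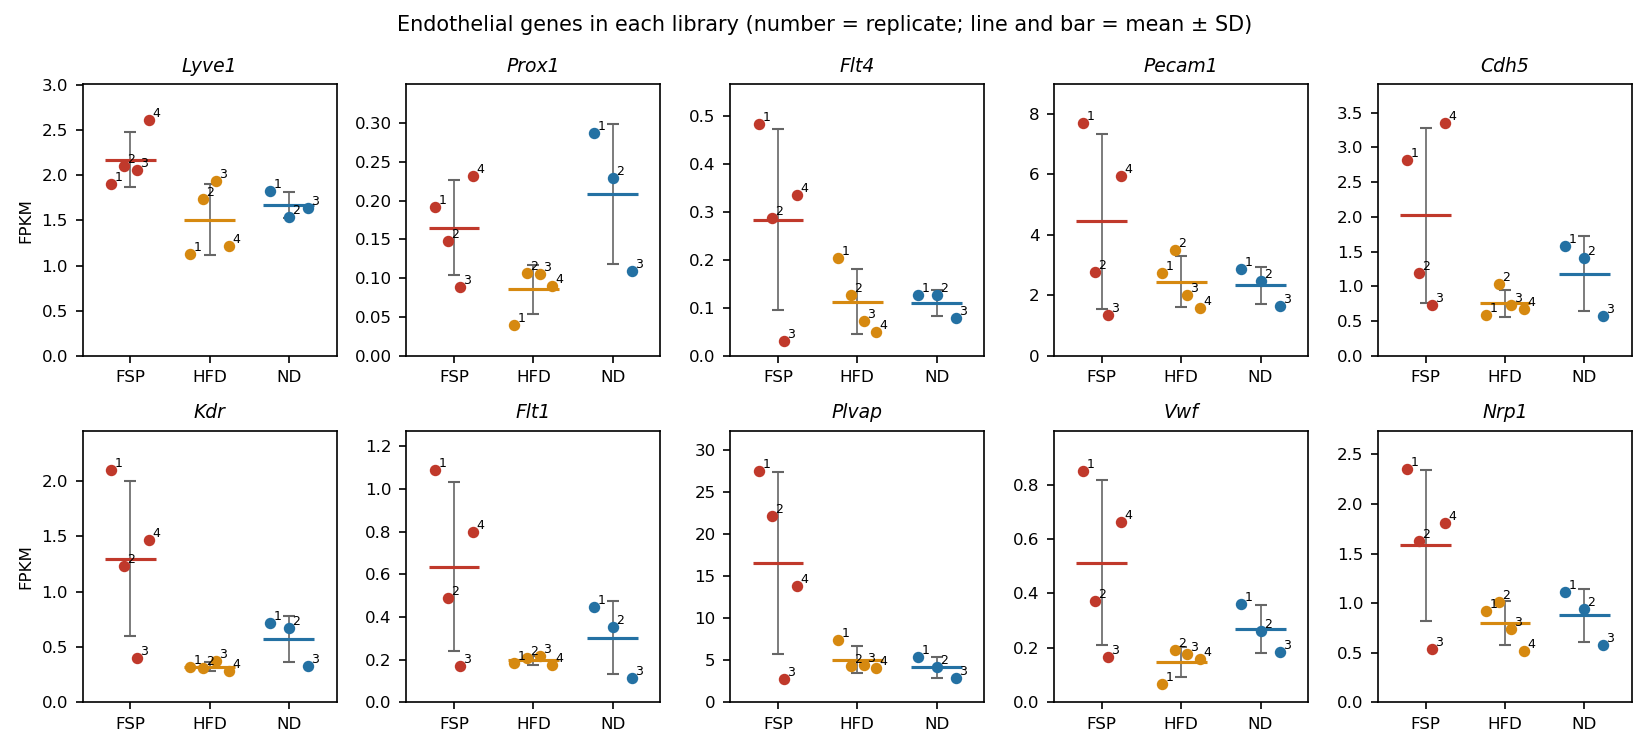
Expression (FPKM, vertical axis, from 0) of the 10 endothelial genes in each library of FSP (n = 4), HFD (n = 4) and ND (n = 3); numbers beside the points are replicate numbers, horizontal lines the group means and bars 1 SD. In 6 of the 10 panels FSP 1, FSP 2 and FSP 4 are the highest 3 points, while FSP 3 lies among or below the HFD and ND points except in Lyve1.

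Among the lymphatic genes, Flt4 encodes the receptor for VEGF-C and VEGF-D, and lies at chr11:49609263-49652739 on the plus strand (mm10, GENCODE M21). Its level was 0.483, 0.288, 0.0314 and 0.336 FPKM in FSP 1 to 4, 0.204, 0.127, 0.0725 and 0.0506 FPKM in HFD 1 to 4, and 0.126, 0.126 and 0.0784 FPKM in ND 1 to 3. FSP held both the highest 3 values and the lowest one, so its range enclosed those of HFD and ND. By mean, Flt4 was 0.285 ± 0.188 FPKM in FSP, 0.114 ± 0.0685 FPKM in HFD and 0.110 ± 0.0277 FPKM in ND (SD). These levels rest on few fragments, an estimated 9.90 in FSP 3 and 143 in FSP 1 from the exon length of the annotation. Flt4 averaged under 1 FPKM and was therefore compared by a two-sided exact permutation test of log2(FPKM + 1), whose smallest possible p is 0.0286 in each comparison. The difference was 0.20 for FSP against HFD (exact permutation p = 0.171), 0.20 for FSP against ND (exact permutation p = 0.200) and 0.00 for HFD against ND (exact permutation p = 0.943).

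Prox1 (chr1:190118035-190170714, minus strand) is the transcription factor that specifies and maintains lymphatic endothelium, and in the gut it is also expressed by enteroendocrine and other secretory epithelial cells. FSP 1 to 4 had 0.192, 0.149, 0.0885 and 0.231 FPKM, HFD 1 to 4 had 0.0402, 0.107, 0.105 and 0.0905 FPKM, and ND 1 to 3 had 0.287, 0.229 and 0.110 FPKM. All HFD libraries were below all ND libraries, although HFD 2 and ND 3 were almost level, and FSP overlapped both. The difference of HFD against ND was −0.15 on the log2(FPKM + 1) scale (exact permutation p = 0.0286, the smallest possible). After Benjamini-Hochberg adjustment over the 13954 genes under the filter, this exact permutation test gave 0.424 for Prox1. Every gene at the smallest possible p shares this adjusted value, so it does not rank Prox1 above them. Of the genes under the filter, 5.57% were likewise lower in HFD at an unadjusted p of 0.05 or less. Prox1 in HFD 1, the library with the largest mitochondrial share, rests on an estimated 10.7 fragments. A list of 11 enteroendocrine and tuft cell markers summed to 53.2 to 64.7 FPKM in FSP, 44.8 to 113.4 FPKM in HFD and 49.8 to 76.5 FPKM in ND, and its part in the Prox1 level was not tested. FSP differed from HFD by 0.10 (exact permutation p = 0.114) and from ND by −0.05 (exact permutation p = 0.486).

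Lyve1 (chr7:110850607-110863239, minus strand) encodes a hyaluronan receptor of lymphatic endothelium that some tissue macrophages also carry. It was the most abundant of the lymphatic genes and the least variable of the 10 genes within FSP and within ND. The values were 1.91, 2.10, 2.06 and 2.61 FPKM in FSP 1 to 4, 1.13, 1.74, 1.94 and 1.21 FPKM in HFD 1 to 4, and 1.83, 1.54 and 1.64 FPKM in ND 1 to 3. Every FSP library was above every ND library and above all HFD libraries but HFD 3, and FSP 3 was the third highest library. Lyve1 was thus the 1 gene of 10 with FSP wholly above ND, against 3.23% of all genes in the table. Its mean was 2.17 ± 0.303 FPKM in FSP, 1.51 ± 0.394 FPKM in HFD and 1.67 ± 0.147 FPKM in ND (SD). In the limma fit the log2 change was 0.35 for FSP against HFD (SE 0.135, adjusted p = 0.190), 0.24 for FSP against ND (SE 0.146, adjusted p = 0.467) and −0.10 for HFD against ND (SE 0.146, adjusted p = 0.613).

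Kdr and Flt1, the receptors of VEGF-A, both lie on chromosome 5 on the minus strand, Kdr at chr5:75932827-75978458 and Flt1 at chr5:147561604-147726011. Their log2 levels followed each other over the 11 libraries (Pearson r = 0.98, a description over libraries that share 3 groups). Flt1 and Vwf had an r of 0.98 too, and the 21 pairs of blood endothelial genes had a median of 0.89. The 250 bases before the start of Kdr and of Flt1 are shown as the regulatory stretch next to the start of these receptor genes. The sequences are those of RefSeq (GRCm38.p6), at chr5:75978456-75978705 for Kdr and chr5:147726012-147726261 for Flt1, written 5′ to 3′ on the minus strand. Capitals mark GGAA or its reverse complement TTCC, the core of the motif bound by ETS transcription factors such as ERG and FLI1, which drive endothelial genes.
Kdr: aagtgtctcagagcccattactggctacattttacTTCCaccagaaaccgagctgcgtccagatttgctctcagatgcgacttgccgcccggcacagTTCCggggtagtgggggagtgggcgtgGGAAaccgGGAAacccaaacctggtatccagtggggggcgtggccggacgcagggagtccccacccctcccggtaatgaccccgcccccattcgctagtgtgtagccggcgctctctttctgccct
Flt1: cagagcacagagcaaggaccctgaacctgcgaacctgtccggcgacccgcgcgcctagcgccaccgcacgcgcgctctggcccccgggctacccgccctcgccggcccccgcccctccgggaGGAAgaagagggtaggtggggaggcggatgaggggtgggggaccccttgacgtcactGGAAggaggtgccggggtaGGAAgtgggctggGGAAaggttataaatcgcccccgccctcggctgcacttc
Each stretch holds 4 such cores. A GC box, GGGCGG or its reverse complement CCGCCC, occurs 2 times in that of Kdr and 3 times in that of Flt1. The motifs can share letters but do not in these sequences. Of 32851 stretches of the same length before RefSeq gene starts, 93.4% hold the ETS core and 32.7% the GC box on either strand, so the matches describe these sequences and do not set them apart.

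Kdr was measured at 2.10, 1.23, 0.398 and 1.46 FPKM in FSP 1 to 4, 0.317, 0.314, 0.378 and 0.288 FPKM in HFD 1 to 4, and 0.713, 0.675 and 0.330 FPKM in ND 1 to 3. All 4 FSP libraries were above all 4 HFD libraries, but FSP 3 exceeded HFD 3 only narrowly, and the HFD values were close to each other. The mean was 1.30 ± 0.702 FPKM in FSP, 0.324 ± 0.0383 FPKM in HFD and 0.573 ± 0.211 FPKM in ND (SD), which is 4.00-fold for FSP over HFD. For FSP against HFD the difference was 0.74 on the log2(FPKM + 1) scale (exact permutation p = 0.0286, the smallest possible). The adjusted value of this exact permutation p over the 13954 genes under the filter was 1.00, and 1.25% of these genes were higher in FSP at an unadjusted p of 0.05 or less. None of these genes had a smaller adjusted value in that comparison. With median-ratio scaling of the libraries the exact permutation p for Kdr was 0.0571. Kdr differed by −0.24 for HFD against ND (exact permutation p = 0.0571), where HFD 3 was above ND 3, and by 0.50 for FSP against ND (exact permutation p = 0.171).

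Flt1, the receptor that binds VEGF-A without much signal, had 1.09, 0.489, 0.169 and 0.800 FPKM in FSP 1 to 4, 0.183, 0.211, 0.217 and 0.177 FPKM in HFD 1 to 4, and 0.446, 0.353 and 0.114 FPKM in ND 1 to 3. FSP 1, FSP 2 and FSP 4 were above all other libraries, and FSP 3 was below all HFD libraries. The mean was 0.637 ± 0.396 FPKM in FSP, 0.197 ± 0.0198 FPKM in HFD and 0.304 ± 0.171 FPKM in ND (SD). None of the exact permutation tests was at or below 0.05, with p = 0.143 for FSP against HFD, p = 0.229 for FSP against ND and p = 0.314 for HFD against ND. The ratio of Kdr to Flt1 lay between 1.83 and 2.51 in FSP, between 1.49 and 1.74 in HFD and between 1.60 and 2.89 in ND. ND spanned most of the range of the other groups.

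Nrp1 (chr8:128358604-128503363, plus strand) encodes neuropilin-1, a co-receptor for VEGF-A and a receptor for class 3 semaphorins that is also made by neurons and some immune cells. Levels were 2.35, 1.63, 0.539 and 1.81 FPKM in FSP 1 to 4, 0.923, 1.01, 0.745 and 0.521 FPKM in HFD 1 to 4, and 1.11, 0.942 and 0.583 FPKM in ND 1 to 3. The FSP libraries other than FSP 3 were above all others, and HFD and ND overlapped. The limma log2 change was 0.47 for FSP against HFD (SE 0.220, adjusted p = 0.275), 0.41 for FSP against ND (SE 0.237, adjusted p = 0.450) and −0.06 for HFD against ND (SE 0.237, adjusted p = 0.865).

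Pecam1 (chr11:106654217-106750628, minus strand) and Cdh5 (chr8:104101625-104144511, plus strand) encode adhesion proteins of endothelial junctions. Cdh5, or VE-cadherin, is the adherens junction protein of all endothelium, whereas Pecam1 is also on platelets and leukocytes. For Pecam1, FSP 1 to 4 had 7.69, 2.76, 1.36 and 5.95 FPKM, HFD 1 to 4 had 2.74, 3.49, 2.00 and 1.59 FPKM, and ND 1 to 3 had 2.87, 2.48 and 1.66 FPKM. Only FSP 1 and FSP 4 stood above the rest, FSP 2 was below HFD 2 and ND 1, and FSP 3 was the lowest library. The limma log2 change of Pecam1 was 0.51 for FSP against HFD (SE 0.355, adjusted p = 0.480), 0.55 for FSP against ND (SE 0.383, adjusted p = 0.535) and 0.03 for HFD against ND (SE 0.383, adjusted p = 0.951).

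For Cdh5, the libraries had 2.82, 1.20, 0.734 and 3.35 FPKM in FSP 1 to 4, 0.591, 1.03, 0.727 and 0.678 FPKM in HFD 1 to 4, and 1.57, 1.41 and 0.573 FPKM in ND 1 to 3. FSP 1 and FSP 4 were again the highest, ND 1 and ND 2 came next, and FSP 3 was level with HFD 3. The limma log2 change was 0.69 for FSP against HFD (SE 0.279, adjusted p = 0.210), 0.40 for FSP against ND (SE 0.301, adjusted p = 0.561) and −0.29 for HFD against ND (SE 0.301, adjusted p = 0.489). FSP 1 and FSP 4, the libraries with the highest Pecam1 and Cdh5, also had the highest summed adipocyte markers of the FSP libraries, at 114.5 FPKM in FSP 1 and 172.6 FPKM in FSP 4, beside 80.0 FPKM in FSP 2 and 111.7 FPKM in FSP 3. FSP 1 was only just above FSP 3 in this sum and below HFD 4 (122.5 FPKM), and the part of fat in the Pecam1 and Cdh5 levels was not tested.

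Plvap (chr8:71497765-71511752, minus strand) encodes the protein that builds the diaphragms of capillary fenestrae, and it was the most abundant of the 10 genes. Its level was 27.6, 22.1, 2.77 and 13.8 FPKM in FSP 1 to 4, 7.47, 4.29, 4.42 and 4.05 FPKM in HFD 1 to 4, and 5.37, 4.21 and 2.92 FPKM in ND 1 to 3. FSP 1, FSP 2 and FSP 4 were far above the rest, and FSP 3 was the lowest of all libraries. The mean was 16.6 ± 10.8 FPKM in FSP, 5.06 ± 1.61 FPKM in HFD and 4.17 ± 1.22 FPKM in ND (SD). With a log2 change of 1.23 for FSP against HFD (SE 0.508, 95% interval 0.12 to 2.34, adjusted p = 0.218) and 1.45 for FSP against ND (SE 0.549, 95% interval 0.25 to 2.65, adjusted p = 0.249) Plvap had the largest estimates of the 5 genes tested with limma, without passing the threshold. The change for HFD against ND was 0.22 (SE 0.549, adjusted p = 0.776).

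Vwf (chr6:125546774-125686679, plus strand) encodes von Willebrand factor, stored in the Weibel-Palade bodies of endothelial cells and in platelets. FSP 1 to 4 gave 0.851, 0.371, 0.167 and 0.664 FPKM, HFD 1 to 4 gave 0.0668, 0.192, 0.177 and 0.159 FPKM, and ND 1 to 3 gave 0.362, 0.263 and 0.184 FPKM. FSP 2 was only just above ND 1, HFD 1 was the lowest library, and HFD 2 was above ND 3. The mean was 0.513 ± 0.304 FPKM in FSP, 0.149 ± 0.0563 FPKM in HFD and 0.269 ± 0.0893 FPKM in ND (SD). The exact permutation p was 0.0857 for FSP against HFD, 0.314 for FSP against ND and 0.0571 for HFD against ND. Blood cell markers were read beside Vwf. The 9 megakaryocyte and platelet markers summed to 11.5 to 19.3 FPKM in FSP, 8.002 to 14.2 FPKM in HFD and 17.7 to 19.4 FPKM in ND, with Ppbp, Gp9, Gp1ba and Treml1 among those at 0 in some libraries. Gp1bb, a platelet receptor subunit for von Willebrand factor and the 1 of them tested, fell by 0.94 in HFD against ND (limma, adjusted p = 0.00993). The 7 red blood cell markers summed to 16.7 to 62.6 FPKM in FSP, 32.6 to 105.5 FPKM in HFD and 14.5 to 22.4 FPKM in ND. Of the 4 tested, the globins Hba-a1, Hbb-bs and Hbb-bt, whose near-identical copies can share reads, rose in HFD against ND by 1.27 to 1.76 (limma, adjusted p 0.0209 to 0.0258). The call of Gp1bb held under all 21 alternatives run, and those of the globins were lost under 4 or 5 of them, all 3 without ND 1 or ND 2, Hbb-bs also without HFD 3 and Hbb-bt without ND 3 (limma, adjusted p 0.0511 to 0.116). The part of blood content in the Vwf and Pecam1 values was not tested.

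Ordered by mean over the 11 libraries, the genes ran from Plvap (9.002 FPKM) through Pecam1 (3.15), Lyve1 (1.79), Cdh5 (1.33), Nrp1 (1.11), Kdr (0.746), Flt1 (0.386), Vwf (0.314) and Flt4 (0.175) to Prox1 (0.148 FPKM). The order changed within groups: in ND Prox1 (0.209 FPKM) was above Flt4 (0.110 FPKM), and in HFD Nrp1 (0.800 FPKM) was above Cdh5 (0.758 FPKM). Several neighbours in this order could not be separated by the spread within a group. In ND, for example, Cdh5 at 1.18 ± 0.536 FPKM and Nrp1 at 0.879 ± 0.269 FPKM overlapped, as did Flt1 at 0.304 ± 0.171 FPKM and Vwf at 0.269 ± 0.0893 FPKM (SD, n = 3). All of them were far below epithelial genes: Epcam, an adhesion protein of every enterocyte, averaged 901.9 FPKM in FSP, 562.1 FPKM in HFD and 828.0 FPKM in ND.

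The limma fit covered 10296 genes with a mean of at least 1 FPKM, among them Lyve1, Pecam1, Cdh5, Plvap and Nrp1. Cdh5 and Nrp1 reached this mean only with their FSP values, so passing the filter already favoured a higher FSP level. For HFD against ND, 0 of the 5 passed an adjusted p of 0.05 and 0 had an unadjusted p under 0.05, while among all tested genes 5.36% passed as higher and 15.1% as lower in HFD and 37.6% had an unadjusted p under 0.05. In the comparison of FSP with HFD 0 of the 5 passed and Lyve1, Cdh5 and Plvap had an unadjusted p under 0.05, against 2.83% of all tested genes higher and 0.913% lower in FSP. Of all tested genes, 18.7% had an unadjusted p under 0.05 in that comparison. For FSP against ND 0 of the 5 passed and Plvap had an unadjusted p under 0.05, against 0.699% of all tested genes higher and 0.33% lower in FSP. In that comparison 14.4% of all tested genes had an unadjusted p under 0.05, so 1 of 5 is near the background. The split of all calls depended on scaling: for HFD against ND, 552 genes were higher and 1557 lower as deposited, and 899 were higher and 799 lower after median-ratio scaling. For FSP against HFD these counts were 291 and 94 as deposited, and 142 and 103 after it. The FSP comparison with HFD and that of HFD with ND share the HFD libraries, so a low HFD library pulls them in opposite directions.

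**Figure D2:**
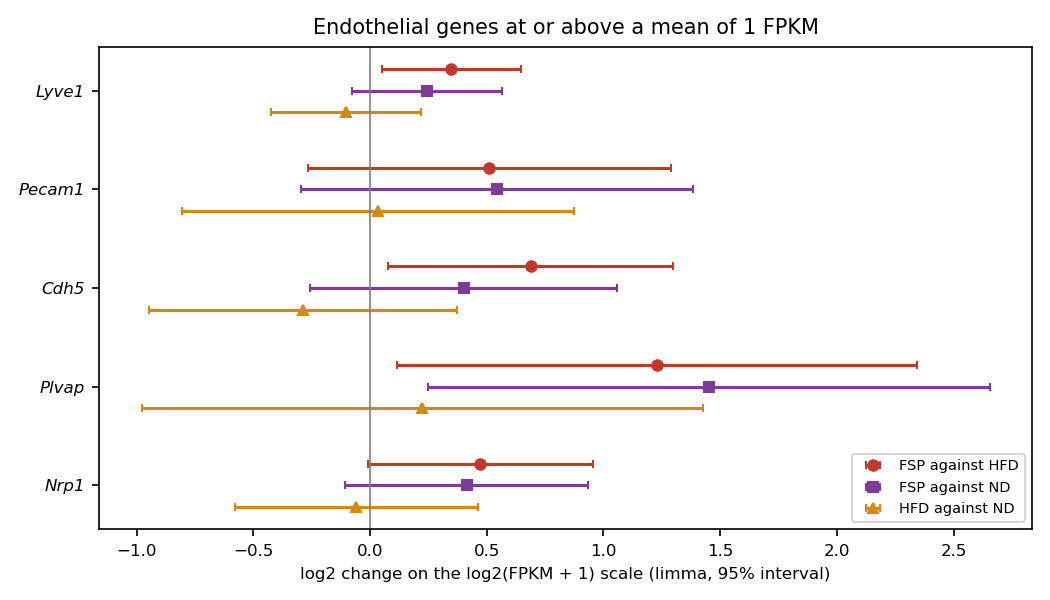
Log2 change on the log2(FPKM + 1) scale (horizontal axis) of the 5 endothelial genes with a mean of at least 1 FPKM, for FSP against HFD, FSP against ND and HFD against ND; points are limma estimates and bars 95% intervals. The estimates for HFD against ND lie near 0, and the intervals of Plvap are the widest.

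FSP 3 decided whether any of these genes passed. Without it, Plvap was higher in FSP than in HFD by 1.85 (adjusted p = 0.00641) and higher than in ND by 2.08 (adjusted p = 0.00650) in the limma fit. The value of Nrp1, which reached the filter only with its FSP levels, was then 0.70 for FSP against HFD (limma, adjusted p = 0.0366). Of all tested genes 3.38% passed as higher in FSP than in HFD without FSP 3, and 0.874% as higher than in ND. In each of the 5 genes under the filter FSP 1, FSP 2 and FSP 4 were above every HFD library, as they were in 4.17% of all genes under the filter. FSP 3 was singled out for its low values in these genes, so the values without it are a description and support nothing, and nothing in the labels sets it apart. FSP 1, FSP 2 and FSP 4 held the highest 3 of 11 values in Flt4, Kdr, Flt1, Plvap, Vwf and Nrp1, a pattern noticed in the values, and 1.64% of all genes in the table had it.

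The same pattern, noticed in the endothelial values, was counted in other lists of genes. The pattern of FSP 1, FSP 2 and FSP 4 on top was present in 12 of 30 other blood endothelial genes, 3 of 18 other lymphatic genes, 6 of 11 macrophage markers and 2 of 11 B and plasma cell markers, beside 1.64% of all genes in the table. Sox18 and Cldn5 are in both the blood and the lymphatic list, so the counts of these lists can share genes. It was present in 0 of 10 pericyte and vascular muscle markers, 0 of 10 fibroblast markers, 0 of 10 smooth muscle markers and 0 of 8 adipocyte markers. The 7 blood endothelial genes summed to 44.5, 29.8, 6.14 and 27.8 FPKM in FSP 1 to 4, 12.3, 10.55, 8.66 and 7.46 FPKM in HFD 1 to 4, and 12.4, 10.3 and 6.37 FPKM in ND 1 to 3, and Plvap was the largest term in every library. The 11 macrophage markers summed to 54.9, 51.1, 7.99 and 39.4 FPKM in FSP 1 to 4, 28.9, 27.5, 16.8 and 14.6 FPKM in HFD 1 to 4, and 15.6, 15.5 and 11.9 FPKM in ND 1 to 3. Both sums were highest in FSP 1 and second highest in FSP 2, and FSP 3 had the lowest of each. Of the macrophage markers 9 were above 0 in every library, Cd163 was at 0 in 1 library and Timd4 in 2. Among the most abundant of them, C1qa and C1qc, complement proteins of tissue macrophages, averaged 12.2 and 9.77 FPKM in FSP, 6.43 and 4.98 FPKM in HFD, and 3.43 and 2.66 FPKM in ND. With all libraries 0 of the 6 tested macrophage markers passed in any comparison. B and plasma cell markers (11 genes) summed to 186.2 to 872.8 FPKM in FSP, with the lowest value in FSP 3, to 201.8 to 353.2 FPKM in HFD and to 115.6 to 163.2 FPKM in ND. The part of macrophage, B cell and plasma cell content in the endothelial values was not tested.

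**Figure D3:**
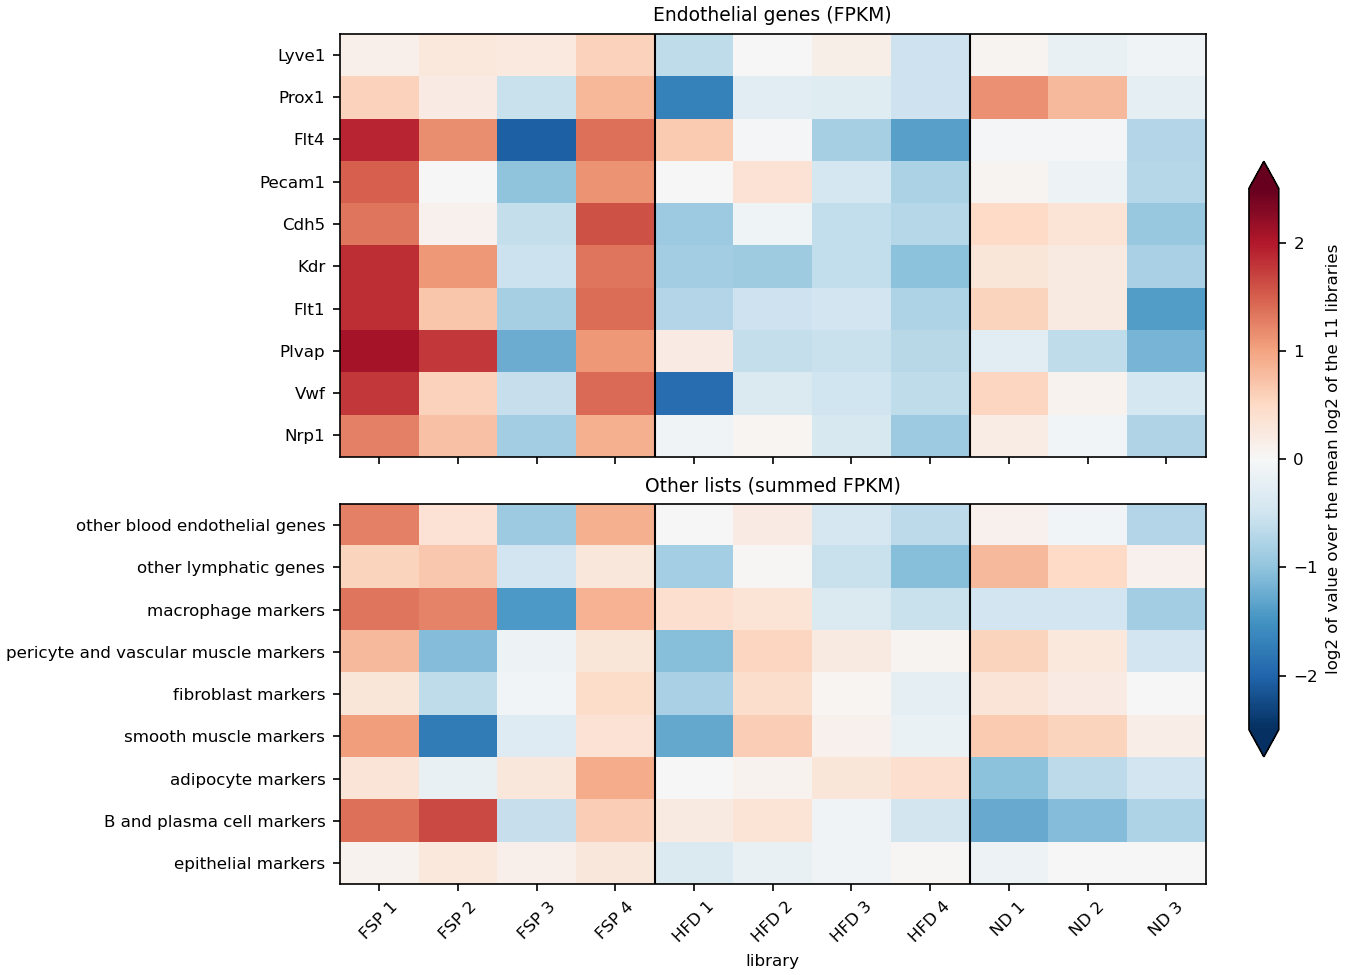
Level of each endothelial gene (upper block, FPKM) and of each marker list (lower block, summed FPKM) in the 11 libraries, FSP, HFD and ND from left to right; colour is the log2 value minus the mean log2 value of the row. FSP 1, FSP 2 and FSP 4 are red in most blood endothelial rows and in the macrophage row, and FSP 3 is blue in both, while smooth muscle and pericyte rows are lowest in FSP 2 and HFD 1.

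Pericytes and muscle cells form the wall of blood vessels, and their 10 markers summed to 87.0, 23.3, 45.4 and 61.2 FPKM in FSP 1 to 4, 23.6, 71.9, 58.3 and 52.1 FPKM in HFD 1 to 4, and 72.6, 59.8 and 35.6 FPKM in ND 1 to 3. FSP 2, which had high blood endothelial genes, had the lowest sum. Rgs5, a pericyte regulator of G protein signalling, averaged 39.9 FPKM in FSP, 41.9 FPKM in HFD and 40.7 FPKM in ND, and Mcam, an adhesion protein of pericytes and endothelium, averaged 4.46 FPKM in FSP, 2.76 FPKM in HFD and 4.29 FPKM in ND. Of the 6 tested markers, 0 passed in each comparison (median log2 change 0.39 for FSP against HFD, −0.11 for FSP against ND and −0.35 for HFD against ND), as did 0 of 10 smooth muscle and 0 of 8 fibroblast markers.

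The genes fell into different patterns across libraries, described here by Pearson r of log2(FPKM + 1) over 11 libraries, which share groups and scaling. The 21 pairs of blood endothelial genes had r from 0.69 to 0.98, with a median of 0.89. Flt4 went with the blood genes at r from 0.79 to 0.96 (median 0.90), and less with Prox1 and Lyve1, since the 3 pairs of lymphatic genes had r from 0.37 to 0.49. Prox1 had r from 0.32 to 0.76 with the blood genes and Lyve1 from 0.38 to 0.62. Once each group's mean was subtracted, Lyve1 had r from −0.12 to 0.32 with the blood genes, against a median of 0.90 within them. Prox1 then had r from 0.47 to 0.87 with the blood genes (median 0.72), and Flt4 from 0.71 to 0.95 (median 0.90).

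Of all 10296 tested genes, Nrp1 was most like Sox18, an endothelial transcription factor (r = 0.99), and Flt4 was most like Ctla2a (r = 0.97), followed by Nrp1 and by Egfl7, a secreted endothelial protein. Flt1 was most like Tmem204, Tie1 and Eng, Kdr most like Agt, Acvrl1 and Tmem204, and Cdh5 most like Nid1, Eng and Podxl. Vwf was closest to Ly6c1, Agt and Tmem204. Pecam1 was closest to Anxa5, Rtl8c and S100a4, and Plvap to Col6a4, Apol7c and Serpina1b. Lyve1 was most like Vegfc (r = 0.86), but once each group's mean was subtracted its closest genes were Ngly1, Vbp1 and Rad21. For Prox1 the closest were Gpr15lg, Gnpnat1 and Foxa1, the last a transcription factor of gut epithelium.

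The ligands of these receptors were read next. Vegfa, the ligand of Kdr and Flt1, averaged 13.9 FPKM in FSP, 13.2 FPKM in HFD and 13.2 FPKM in ND, with a log2 change of 0.06 for FSP against HFD (95% interval −0.23 to 0.35) and 0.00 for HFD against ND (95% interval −0.31 to 0.32). Vegfb, which binds Flt1, averaged 4.23 FPKM in FSP, 4.00 FPKM in HFD and 4.17 FPKM in ND. Vegfc, the main ligand of Flt4, was 2.54, 2.54, 2.37 and 2.56 FPKM in FSP 1 to 4, 0.651, 2.41, 2.28 and 1.40 FPKM in HFD 1 to 4, and 1.70, 1.70 and 1.69 FPKM in ND 1 to 3. FSP and ND were each nearly uniform, FSP lay above ND, as in 3.23% of all genes in the table, and HFD spread across both. The limma log2 change of Vegfc was 0.44 for FSP against HFD (adjusted p = 0.261), 0.38 for FSP against ND (adjusted p = 0.450) and −0.06 for HFD against ND (adjusted p = 0.836). Vegfd, the other ligand of Flt4, averaged 0.994 FPKM in FSP, 0.604 FPKM in HFD and 0.984 FPKM in ND, and Pgf, a ligand of Flt1, averaged 0.133, 0.122 and 0.0637 FPKM in the same groups.

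Of the 20 growth factors and other ligands in that list, 8 were tested, and for HFD against ND 0 were higher and 2 were lower, beside 15.1% of all tested genes lower in HFD. These were Dll4, the Notch ligand of sprouting vessels and lacteals that is also made in crypt epithelium, and Angptl4, an inhibitor of lipoprotein lipase made by enterocytes and adipocytes. Dll4 had 2.69, 3.88, 3.12 and 2.72 FPKM in FSP 1 to 4, 1.36, 1.64, 1.77 and 1.63 FPKM in HFD 1 to 4, and 5.07, 4.89 and 3.61 FPKM in ND 1 to 3. HFD lay below both other groups without overlap, and all FSP libraries but FSP 2 lay below all ND libraries. Of all genes in the table, 18.5% had every HFD library below every ND library, and 4.33% had every FSP library above every HFD library. The log2 change of Dll4 was −1.08 for HFD against ND (limma, SE 0.145, adjusted p = 0.000994), 0.65 for FSP against HFD (SE 0.134, adjusted p = 0.0268) and −0.43 for FSP against ND (adjusted p = 0.200). Its call in HFD against ND held under all 21 alternatives run, whereas that in FSP against HFD was lost under 13 of 22, with an adjusted p of 0.0849 after median-ratio scaling and of 0.0502 to 0.0715 without FSP 2, FSP 4, HFD 1, HFD 3, HFD 4 or ND 2 (limma). Angptl4 averaged 9.33 ± 3.42 FPKM in FSP, 6.67 ± 0.278 FPKM in HFD and 17.2 ± 5.64 FPKM in ND (SD), and fell by 1.20 (log2) between HFD and ND (limma, adjusted p = 0.0121). Dll4 was the 1 ligand of 8 that passed for FSP against HFD, beside 2.83% of all tested genes higher and 0.913% lower in FSP. For FSP against ND 0 of 8 passed, beside 0.699% higher and 0.33% lower. The median log2 change of the 8 was 0.25 for FSP against HFD, −0.02 for FSP against ND and −0.12 for HFD against ND.

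**Figure D4:**
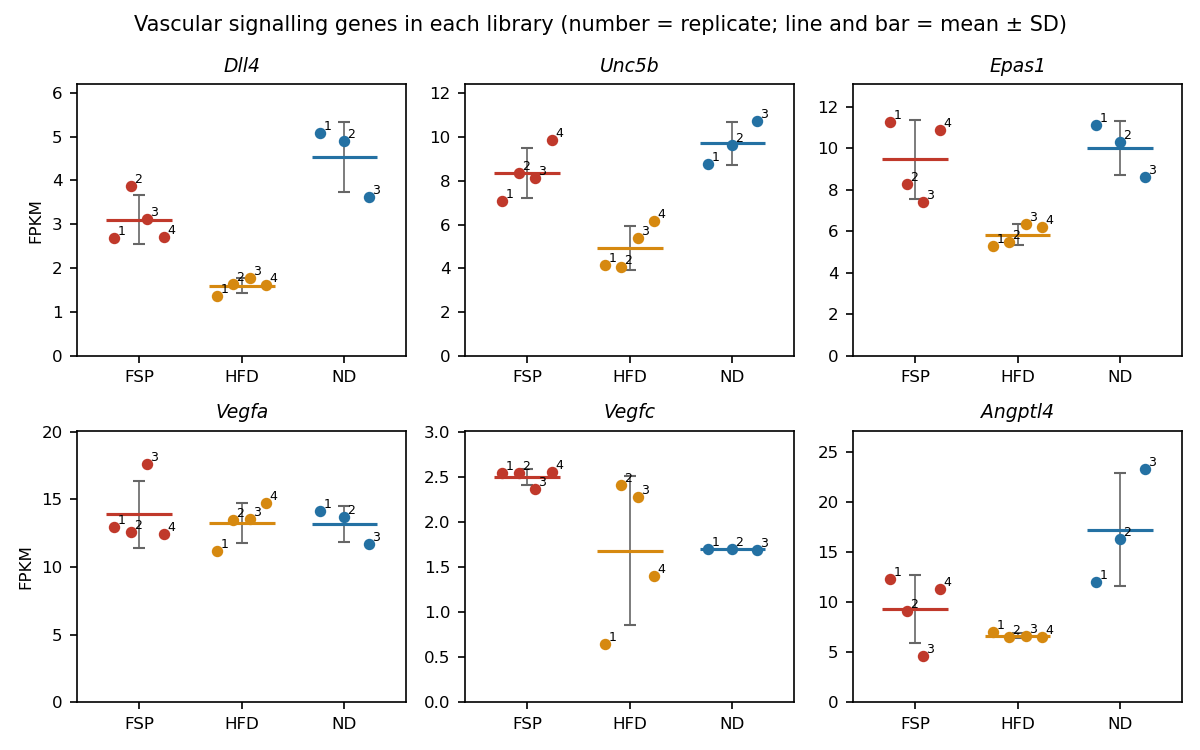
Expression (FPKM, vertical axis, from 0) of 6 vascular signalling genes in each library of FSP (n = 4), HFD (n = 4) and ND (n = 3), with replicate numbers beside the points, group means as lines and 1 SD as bars. Dll4, Unc5b and Epas1 are lowest in the 4 HFD libraries, Vegfa is similar in the 3 groups, and Vegfc is nearly uniform in FSP and in ND.

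Among 25 genes of Notch and junction signalling in vessels, 17 were tested, and for HFD against ND Dll1 rose and Dll4, Unc5b and Bmpr2 fell. Beside 5.36% of all tested genes higher and 15.1% lower in HFD, 1 and 3 of 17 are near the background. Unc5b, a netrin receptor that restrains endothelial sprouting and is also made outside vessels, had 7.09, 8.34, 8.11 and 9.87 FPKM in FSP 1 to 4, 4.13, 4.05, 5.37 and 6.16 FPKM in HFD 1 to 4, and 8.74, 9.64 and 10.7 FPKM in ND 1 to 3. HFD was below both other groups without overlap, and FSP 3 was not low. In 18.5% of all genes in the table HFD lay wholly below ND, and in 4.33% wholly below FSP. Unc5b changed by −0.86 for HFD against ND (limma, SE 0.154, adjusted p = 0.00354), by 0.67 for FSP against HFD (SE 0.142, adjusted p = 0.0300) and by −0.20 for FSP against ND (adjusted p = 0.571). The call of Unc5b was lost under 1 of 21 alternatives in HFD against ND and under 12 of 22 in FSP against HFD, with an adjusted p of 0.111 after median-ratio scaling and of 0.0555 to 0.102 without FSP 2, FSP 4, HFD 1, HFD 2, HFD 3 or ND 2 (limma). Dll1, a Notch ligand of secretory precursors in the crypt as well as of arteries, averaged 6.25 FPKM in FSP, 6.49 FPKM in HFD and 4.21 FPKM in ND, and rose by 0.54 in HFD against ND (limma, adjusted p = 0.0242). Bmpr2, a receptor for bone morphogenetic proteins and the fourth gene past the threshold, averaged 4.48 FPKM in FSP, 3.60 FPKM in HFD and 5.40 FPKM in ND. The calls of Dll1 and Bmpr2 were lost under 6 and 14 of 21 alternatives, among them leaving out HFD 3, HFD 4, ND 1 or ND 2 for Dll1 (limma, adjusted p 0.0562 to 0.118) and FSP 1, FSP 3, FSP 4, HFD 1, HFD 4, ND 1 or ND 2 for Bmpr2 (0.0508 to 0.181). Of the 10 epithelial markers, Epcam and Cldn7 passed in the same directions as Dll4 and Unc5b, Epcam by −0.58 for HFD against ND (limma, adjusted p = 0.0296) and 0.71 for FSP against HFD (adjusted p = 0.0306), and Cldn7, a tight junction protein, by −0.72 (adjusted p = 0.00548) and 0.72 (adjusted p = 0.0175). For FSP against HFD these calls were lost under 10 and 6 of 22 alternatives, Epcam without FSP 1, FSP 2, FSP 4, HFD 3 or ND 2 (limma, adjusted p 0.0598 to 0.0999) and Cldn7 without FSP 4 or HFD 3 (0.0616 and 0.0544), and for HFD against ND under 7 and 2 of 21, Epcam without any 1 ND library (0.0676 to 0.108). Neither passed after median-ratio scaling. The limma adjusted p was then 0.202 for Epcam and 0.0976 for Cldn7 in HFD against ND, and 0.0922 and 0.101 in FSP against HFD. With quantile normalization Epcam and Cldn7 passed in both comparisons (limma, adjusted p 0.00108 to 0.0116). Dll4 (0.0843) and Unc5b (0.0584) then did not pass in FSP against HFD. The 10 summed to 10092 to 11511 FPKM in FSP, 7429 to 9706 FPKM in HFD and 8682 to 9443 FPKM in ND, and the part of epithelium in the levels of Dll4 and Unc5b was not tested. In FSP against HFD 2 of the 17 rose, Dll4 and Unc5b, beside 2.83% of all tested genes, and in FSP against ND 0 passed. Dll4 is also in the list of ligands above, so its calls are counted in both lists. The median log2 change of the 17 was −0.22 for HFD against ND, beside −0.21 over all tested genes, and 0.34 for FSP against HFD, beside 0.12.

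Hypoxia acts on vessels through VEGF-A, and of 13 tested genes of the hypoxia response 3 were higher and 1 was lower in HFD than in ND, beside 5.36% and 15.1% of all tested genes. The higher ones were Ankrd37, a HIF-1 target, by 1.43, Ndrg1 by 0.59 and Bnip3, which promotes mitophagy, by 0.66 on the log2 scale. Epas1, which encodes HIF-2alpha and is high in endothelium but also made by enterocytes, fell by 0.68 (limma, SE 0.154, adjusted p = 0.0109). It had 11.3, 8.29, 7.40 and 10.9 FPKM in FSP 1 to 4, 5.32, 5.48, 6.37 and 6.22 FPKM in HFD 1 to 4, and 11.1, 10.3 and 8.61 FPKM in ND 1 to 3. HFD was again below both groups without overlap. In 18.5% of all genes in the table HFD lay wholly below ND, and in 4.33% wholly below FSP. For FSP against HFD Epas1 rose by 0.60 (limma, SE 0.142, adjusted p = 0.0425), the 1 gene of 13 that passed, beside 2.83% of all tested genes higher and 0.913% lower in FSP. That call was lost under 19 of 22 alternatives, and the one in HFD against ND under 3 of 21, while Ankrd37, Ndrg1 and Bnip3 lost theirs under 1, 10 and 13 of 21. For FSP against HFD, Epas1 passed without FSP 3 but not without any other single library (limma, adjusted p 0.0531 to 0.143), and for HFD against ND it did not pass without ND 1 (0.0596) or ND 2 (0.0549). Ndrg1 did not pass without HFD 2, HFD 3, HFD 4 or any 1 ND library (limma, adjusted p 0.0609 to 0.144), and Bnip3 passed only without FSP 2 or HFD 2 among the single libraries (0.0518 to 0.127 without the others). In FSP against ND 0 of 13 passed. The median log2 change of the 13 was 0.06 for FSP against HFD, 0.13 for FSP against ND and 0.06 for HFD against ND, beside 0.12, −0.07 and −0.21 over all tested genes.

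Of 30 other genes of blood endothelium, all above 0 in every library, 14 were tested, and 0 passed in any comparison. For FSP against HFD 12 of the 14 had a positive change, beside 71.2% of all tested genes. Their median log2 change was 0.45 for FSP against HFD, beside 0.12 over all tested genes, 0.39 for FSP against ND, beside −0.07, and −0.13 for HFD against ND, beside −0.21. The angiopoietin receptor Tek averaged 0.929 FPKM in FSP, 0.508 FPKM in HFD and 0.633 FPKM in ND, and its partner Tie1 averaged 1.43 FPKM in FSP, 0.712 FPKM in HFD and 0.877 FPKM in ND. Rgcc, a cell cycle regulator, and Esam, an endothelial junction protein, had the highest means of the list. Rgcc averaged 4.67 ± 2.54 FPKM in FSP, 3.03 ± 1.45 FPKM in HFD and 1.52 ± 0.208 FPKM in ND, and Esam 4.03 ± 1.74 FPKM in FSP, 2.45 ± 0.263 FPKM in HFD and 2.77 ± 0.698 FPKM in ND (SD). Some of the 14 reached the filter only with their FSP values, Tie1 among them. Without FSP 3, 5 of the 14 passed as higher in FSP than in HFD, beside 3.38% of all tested genes, and 0 of 14 in FSP against ND, beside 0.874%. Of the 6 tested macrophage markers 4 passed in each of these comparisons, and of 7 tested other lymphatic genes 2 and 0 passed. Sox18 and Cldn5 are in both the blood and the lymphatic list, so the counts of these lists can share genes. FSP 3 was singled out for its low values in the endothelial genes, so these counts are a description and support nothing.

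In the list of 18 other lymphatic genes, 7 were tested and 2 fell in HFD against ND, beside 15.1% of all tested genes. These were Fgl2 by 0.99 (limma, adjusted p = 0.00467) and Nts by 1.29 (limma, adjusted p = 0.0292). The call of Nts was lost under 7 of 21 alternatives and that of Fgl2 under 1, and Nts did not pass without HFD 1, HFD 3, HFD 4, ND 1 or ND 2 (limma, adjusted p 0.0570 to 0.121). Both are also made by other cells of the gut: Nts encodes neurotensin, the hormone of N cells of the distal epithelium, and Fgl2 a secreted fibrinogen-like protein of lymphocytes and macrophages. Nts was 153.8, 197.6, 69.6 and 129.2 FPKM in FSP 1 to 4, 54.4, 105.1, 60.1 and 39.8 FPKM in HFD 1 to 4, and 189.8, 154.4 and 115.9 FPKM in ND 1 to 3. HFD lay below ND throughout, as in 18.5% of all genes in the table. FSP overlapped HFD and ND, and the distal marker sums given above were likewise lowest in HFD. Neither FSP comparison had any of the 7 past the threshold (0 and 0), and their median log2 change was 0.20 for FSP against HFD, 0.06 for FSP against ND and −0.12 for HFD against ND. Nrp2, the co-receptor of Flt4 for VEGF-C, averaged 0.756 FPKM in FSP, 0.466 FPKM in HFD and 0.776 FPKM in ND. Foxc2, a transcription factor of lymphatic valves, was listed at 0 in 5 libraries, Tbx1 in 3 and Stab2 in 1.

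Of 10 venule adhesion and homing genes, which lead lymphocytes out of the blood, 9 were in the table and 5 were tested, and 0 passed in any comparison. The median log2 change of the 5 was 0.00 for FSP against HFD, 0.63 for FSP against ND and 0.76 for HFD against ND, beside 0.12, −0.07 and −0.21 over all tested genes. For HFD against ND 4 of the 5 had a positive change. Chst4, a sulfotransferase that builds L-selectin ligands and is also made by epithelium, averaged 4.93 FPKM in FSP, 4.49 FPKM in HFD and 6.82 FPKM in ND. Its mean was thus lower in HFD than in ND, unlike most of the tested genes of this list. Icam1, an adhesion protein for leukocytes, was 4.82, 2.13, 0.509 and 0.690 FPKM in FSP 1 to 4, 3.77, 3.30, 1.21 and 0.666 FPKM in HFD 1 to 4, and 1.02, 0.731 and 0.376 FPKM in ND 1 to 3. FSP 4, which had high Cdh5 and Plvap, had low Icam1, and HFD 1, which had low Cdh5 and Vwf, had high Icam1. Glycam1 was listed at 0 in 7 libraries.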

How the data were processed

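RNA was sequenced from 11 samples of mouse small intestine in 3 groups taken from the sample titles. Per the labels, TRIzol was used for extraction and the VAHTS Universal V6 kit for the libraries. Tools named in the submitters' processing notes are fastp, HISAT2, HTSeq and R 3.2.0, with the build mm10. Annotation, strand setting and FPKM tool were not given in the sources used here. FPKM values were deposited by the authors, and the single-library tables held identical values for the 10 genes.

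Depth was estimated from 658 single-exon genes with RefSeq lengths. Of their low values, 75.0% to 78.9% were within 0.05 of a whole number of fragments, too few to rebuild counts, so a count model was not fitted. Log2(FPKM + 1) was fitted with limma 3.58.1 (R 4.3.3, intensity trend, group only) in a single fit over genes with a mean of at least 1 FPKM, with Benjamini-Hochberg adjustment per comparison and a threshold of 0.05. Changes on this scale understate those of low genes. Genes under the filter had two-sided exact permutation tests over 35 or 70 arrangements. Both tests were checked on simulated data. Gene positions are from GENCODE M21. The RefSeq promoter table held 5 of the 10 genes.

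The genes and lists were chosen with earlier results of these data known. Text names all 10 genes, 8 fixed ligands and receptors, and per list up to 3 genes with the smallest p past the threshold in HFD against ND, or else the 2 with the highest mean. Bmpr2, Bnip3 and the genes named at 0 were outside this rule and chosen after their values were seen, as was the pattern of FSP 1, FSP 2 and FSP 4. Alternatives were another pseudocount, no filter, 4 scalings, a replicate block, 2-group fits, no trend and each library left out. Genes withheld from the text are not reported here.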

Additional observations from a re-analysis of the deposited data

Results flagged for a closer look

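In each group of 4 libraries, the 10 endothelial genes were checked for a library far from the other 3, which is 20 sets in all. Chance flags about 1 in 20 such sets, and 1 was found. Plvap was 7.47 FPKM in HFD 1, against 4.05 to 4.42 FPKM in the other HFD libraries, so its gap to the next library took up most of the HFD range. HFD 1 is also the library with the largest mitochondrial share, and its value for Vwf was the lowest of the 11 libraries. Within HFD, it was also the lowest in Lyve1, Prox1 and Cdh5 and the highest in Flt4. The part of mitochondrial share in these values was not tested.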

How the results depend on the processing

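With all libraries in the fit, 0 endothelial genes passed under any pseudocount, filter, scaling, trend or 2-group alternative. The number passing as higher ranged from 0 to 2 for FSP against HFD and from 0 to 1 for FSP against ND when 1 library was left out, and both upper values came without FSP 3. Median-ratio scaling moved the median change of all tested genes to 0.00 from 0.12 for FSP against HFD and from −0.21 for HFD against ND. Directions in HFD against ND were the least stable, and their values lay near 0. With median-ratio scaling Lyve1 was 0.050 and Nrp1 0.067, and with quantile normalization they were 0.041 and 0.032. At equal FPKM totals Pecam1 was −0.053 and Flt4 −0.013, and with a pseudocount of 0.1 Flt4 was −0.023. Leaving out 1 library gave −0.12 to 0.16 for Pecam1 (negative without HFD 1, HFD 2 or ND 3), −0.036 to 0.030 for Flt4 (negative without the same libraries) and −0.18 to 0.030 for Nrp1 (positive without HFD 4 or ND 1). Values without libraries high in adipocyte or B cell markers were added after the data were seen. Without FSP 1 and FSP 4, which also had the highest Pecam1 and Cdh5 so that lower values follow from the choice, Pecam1 was −0.18 (FSP against HFD) and −0.15 (FSP against ND), Cdh5 −0.13 and Vwf −0.00276 (both FSP against ND). Without FSP 1, FSP 2, HFD 1, HFD 2 and HFD 3, HFD against ND gave −0.35 for Pecam1, −0.080 for Flt4 and −0.00449 for Plvap. The cause was not tested. The named genes of other lists kept their direction under all alternatives run for their called comparisons, which were added for them after the data were seen. For Prox1 in HFD against ND, every fit without an HFD or ND library had an exact permutation p of 0.0667 or 0.1, the smallest such designs allow. Kdr in FSP against HFD had an exact permutation p of 0.0571 without any 1 HFD library, and 0.0286 without any 1 FSP library. With the replicate number as a block 0 genes passed in each comparison, and the change of Plvap was 1.23 for FSP against HFD. Deviations of same-numbered samples had r from −0.10 to 0.45, not all above 0.1, and 0 of 8 samples in FSP and HFD, 3 of 6 in FSP and ND and 1 of 6 in HFD and ND correlated best with their own number, so the numbers were not taken as pairs. The sample numbered 1 had the highest mitochondrial share of each group. Depth limits mainly Prox1 and Flt4.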
